A study of Homo sapiens with 12 samples.

Results

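Heat shock proteins and their co-chaperones were followed as a set of 46 genes in HCT116, a human colorectal carcinoma cell line. The genes were taken by symbol from the deposited count table, which held 56634 symbols, and all 46 were found and passed the filter on low counts. They cover the HSP70, HSP110, HSP40, HSP90, small HSP and mitochondrial chaperone families, the BAG genes, other co-chaperones of HSP70 and HSP90, and the transcription factors HSF1 and HSF2. By textbook knowledge 17 are induced by heat shock and are called stress-inducible here, and the other 29 are called constitutive. The 12 libraries formed 4 groups of 3 biological replicates. The control was the vehicle, 0.1% DMSO, given for 3 hours. A second group was given 1 µM of Senexin B, an inhibitor of the Mediator kinases CDK8 and CDK19, over the same 3 hours. The TNF group was exposed to 10 ng/mL of TNF-alpha for 2 hours after 1 hour in DMSO, and the group named TNF plus Senexin B spent that hour in the inhibitor and then had the same cytokine treatment. The labels name no heat treatment.

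Chaperones bind unfolded proteins and help them to fold, to reassemble or to be degraded. HSP70 proteins work in cycles of ATP binding and hydrolysis. J-domain proteins (HSP40) start these cycles and nucleotide exchange factors (HSP110 and several BAG proteins) reset them. HSP90 proteins take over clients from HSP70 with the help of adaptor co-chaperones. Under stress HSF1 binds heat shock elements, inverted repeats of nGAAn, in the promoters of the inducible genes. Cancer cells often keep a part of that programme active without heat. CDK8 and CDK19 are alternative kinases of the Mediator complex, which links transcription factors to RNA polymerase II.

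Library totals ran from 5835226 to 9281176 counts, and 13084 genes were tested. Levels are given as CPM, counts scaled by TMM-corrected library sizes. NFKBIA, an immediate NF-kB target, was at a log2 fold change of 3.54 ± 0.06 (SE) in TNF against control, at 252 to 298 CPM in libraries labelled TNF and 22 to 26 in the others. The 6 epithelial markers (EPCAM, KRT8, KRT18, KRT19, CDH1 and CLDN4) summed to between 3943 and 4831 CPM, and none of the other marker lists came near: 6 fibroblast markers summed to between 7.37 and 11.2 CPM with DCN and LUM at 0, 6 blood markers to at most 0.547 CPM with HBB at 0, and 3 endothelial markers to at most 0.963 CPM. TNF replicate 1 had the lowest total, and its deviations from the other TNF libraries followed transcript GC content across genes (Spearman's rho = -0.52, a description, since genes are not independent). The biological coefficient of variation was 3.62%, so small differences could pass the test. The labels call the replicates biological without saying how the cultures were kept apart, so p-values measure only the spread between these libraries.

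Promoters of some members, picked by the rules given here, are shown first, because several members share the sequence that HSF1 is known to bind. Each line gives the 250 bases before the RefSeq start (GRCh38.p14), 5′ to 3′ on the gene's strand, and capitals mark every match to the paired heat shock element, GAANNTTC or TTCNNGAA, runs of overlapping matches being joined. GENCODE 29 places the start of some transcripts inside these windows. Both motifs equal their own reverse complement, so a search of the printed strand covers both strands. HSPA1B, DNAJB1, HSPA1A and DNAJA1 are the inducible members with the largest fitted falls in Senexin B against control. HSPA8 was added after its values were seen. HSPA2, a constitutive member of a few CPM with a larger fitted fall (-0.48, not called), is not printed, and its window held no match. HSP90AB1 and PTGES3 are the constitutive members with the highest levels per kilobase that gave no call there.
HSPA1B (chr6:31827488-31827737, plus strand): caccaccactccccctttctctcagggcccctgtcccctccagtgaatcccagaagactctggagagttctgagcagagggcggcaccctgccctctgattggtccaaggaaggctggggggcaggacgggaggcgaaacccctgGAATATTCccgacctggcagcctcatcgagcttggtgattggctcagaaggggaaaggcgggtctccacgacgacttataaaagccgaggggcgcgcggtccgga
HSPA1A (chr6:31815293-31815542, plus strand): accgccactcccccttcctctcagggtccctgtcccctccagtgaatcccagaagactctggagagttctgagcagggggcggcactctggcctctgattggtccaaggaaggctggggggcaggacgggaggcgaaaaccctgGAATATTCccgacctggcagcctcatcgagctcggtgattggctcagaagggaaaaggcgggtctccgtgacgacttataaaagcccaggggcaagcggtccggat
DNAJB1 (chr19:14518398-14518647, minus strand): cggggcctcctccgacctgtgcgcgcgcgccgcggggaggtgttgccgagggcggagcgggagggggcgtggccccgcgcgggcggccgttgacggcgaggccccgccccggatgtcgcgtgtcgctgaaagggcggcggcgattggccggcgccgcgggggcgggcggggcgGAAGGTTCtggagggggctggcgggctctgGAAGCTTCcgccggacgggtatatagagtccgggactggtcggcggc
DNAJA1 (chr9:33025023-33025272, plus strand): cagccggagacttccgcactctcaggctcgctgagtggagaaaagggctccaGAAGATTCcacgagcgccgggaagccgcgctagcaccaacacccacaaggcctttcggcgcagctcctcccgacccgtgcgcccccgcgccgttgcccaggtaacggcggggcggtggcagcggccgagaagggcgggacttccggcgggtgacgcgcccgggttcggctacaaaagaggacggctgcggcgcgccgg
HSPA8 (chr11:123062137-123062386, minus strand): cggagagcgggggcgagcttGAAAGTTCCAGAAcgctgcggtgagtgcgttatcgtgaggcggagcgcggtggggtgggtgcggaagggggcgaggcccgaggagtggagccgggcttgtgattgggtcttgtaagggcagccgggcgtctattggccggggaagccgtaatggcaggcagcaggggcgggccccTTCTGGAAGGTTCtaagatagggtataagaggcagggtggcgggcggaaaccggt
HSP90AB1 (chr6:44246851-44247100, plus strand): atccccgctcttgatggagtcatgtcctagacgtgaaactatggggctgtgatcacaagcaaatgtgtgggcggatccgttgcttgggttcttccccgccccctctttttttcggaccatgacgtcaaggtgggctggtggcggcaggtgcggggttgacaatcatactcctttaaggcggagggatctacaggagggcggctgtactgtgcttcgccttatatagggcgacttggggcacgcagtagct
PTGES3 (chr12:56688285-56688534, minus strand): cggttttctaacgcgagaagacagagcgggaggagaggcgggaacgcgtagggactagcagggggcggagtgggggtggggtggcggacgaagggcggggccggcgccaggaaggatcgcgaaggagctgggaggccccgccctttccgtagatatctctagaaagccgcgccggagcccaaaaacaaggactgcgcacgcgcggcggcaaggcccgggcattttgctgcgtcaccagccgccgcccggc

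The match begins 105 bases before the start in HSPA1B and 106 bases before it in HSPA1A, with the same letters in both. DNAJB1 held matches at 47 and 77 bases, and DNAJA1 at 198 bases. HSPA8 held 4 overlapping matches in 2 places, at 50 and 55 and at 225 and 230 bases, and both places also match the longer heat shock element, in which a further inverted unit follows at the same spacing. The windows printed for HSP90AB1 and PTGES3 hold none, although another RefSeq start of HSP90AB1 (chr6:44247693-44247942) has 4. Of the stress-inducible members with a window, 11 of 16 (68.8%) held the paired motif in at least 1 window, against 4 of 23 constitutive members (17.4%) and 1103 of 9463 tested genes (11.7%). The longer element was found in 3 of 16 inducible members (18.8%), 3 of 23 constitutive members (13.0%) and 44 of 9463 tested genes (0.5%). A match describes these letters and says nothing of binding in these cells.

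In control cells the HSP90 genes stood highest and the HSF genes far below them. Per kilobase of exon, HSP90AB1 stood at 2341 ± 169 CPM (SD, n = 3), HSP90AA1 at 1453 ± 19.1, HSPA8 at 762 ± 27.7 and HSPD1 at 627 ± 7.65, and these 4 did not overlap between the libraries. HSPA1B stood at 60.8 ± 3.07 CPM per kilobase and HSPH1 at 59.8 ± 1.27. The divisor was the length of all annotated exons of a gene, 2521 bases for HSPA1B and 8390 for HSPH1. Single transcripts can be shorter than that, so distances between genes on this scale depend on the annotation. HSF1 and HSF2 were at 21.5 ± 0.758 and 17.0 ± 0.498 CPM per kilobase. HSPA2 was lowest at 0.686 ± 0.0549 CPM per kilobase, followed by DNAJB5 and then HSPA1A at 1.51 ± 0.276. As a share of all counts the 46 genes took 2.96% to 3.11% in control, 2.83% to 2.92% with Senexin B, 3.06% to 3.17% with TNF and 2.79% to 2.91% with both, and the libraries with the inhibitor lay below all others. A bulk share cannot tell less RNA per cell from fewer cells that hold it.

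**Figure D1:**
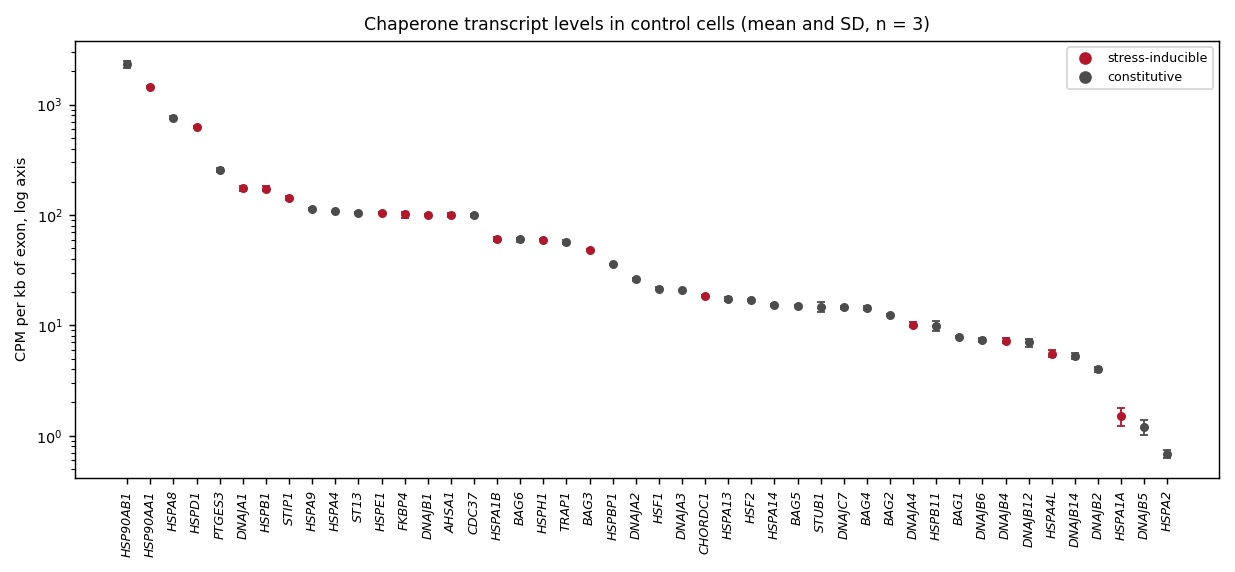
Level of each member in control cells, in CPM per kilobase of exon on a log axis, as the mean with SD over 3 libraries, coloured by class. HSP90AB1 and HSP90AA1 lead at 2341 and 1453, and HSPA2 is lowest at 0.686.

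Senexin B against control asked what Mediator kinase inhibition did to these genes without cytokine. HSPA1B, DNAJB1, HSPA8, DNAJA1, DNAJA4, HSPH1, BAG3 and HSP90AA1 fell. No member was called higher by the main edgeR fit or by DESeq2 (2 members were higher at an unadjusted p under 0.05). That is 8 of 46 members lower (17.4%), where 1.51% of all tested genes were lower and 1.53% higher, 3.04% in all, at an adjusted p under 0.05 (edgeR, quasi-likelihood F-test, Benjamini-Hochberg adjustment over all genes). By p-value HSPA1B and DNAJB1 ranked 1 and 2 of 13084 genes, HSPA8 ranked 6 and DNAJA1 ranked 18. The largest fall among them is moderate in size: HSPA1B ranked 39 from the lowest fold change. HSPA1B, HSPA8, HSPH1, DNAJA1 and DNAJB1 kept their calls in every alternative fit, the other 3 did not.

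TNF plus Senexin B against TNF asked the same in cells that also received the cytokine. It contrasts none of the libraries of the first comparison. All 12 libraries share 1 fit and its estimate of the spread, however, so the 2 tests are not fully independent. HSPA1B, DNAJB1, DNAJB4, HSPA8, DNAJA1, HSPA4L, HSPH1, HSP90AA1, PTGES3 and HSPD1 were lower and DNAJB6 was higher. These are 10 of 46 members lower (21.7%), beside 2.55% of all tested genes, and 1 higher (2.17%), beside 2.90% of all tested genes, where 5.45% of all genes were called in either direction. The 6 members lower in both comparisons, HSPA1B, DNAJB1, HSPA8, DNAJA1, HSPH1 and HSP90AA1, make up 75% of the first list and 60% of the second. Of these 6, 5 (83.3%) held the paired motif in a window, and HSPH1 held none. The share was 68.8% among inducible members, the class of all 6 but HSPA8, and 11.7% among tested genes. The 6 were picked by their response in these same data. Members not called lower in either comparison held it too, among them CHORDC1 with 6 matches, HSPB1 with 1 and DNAJB6 with 2. Whether the motif goes with the response was not tested.

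**Figure D2:**
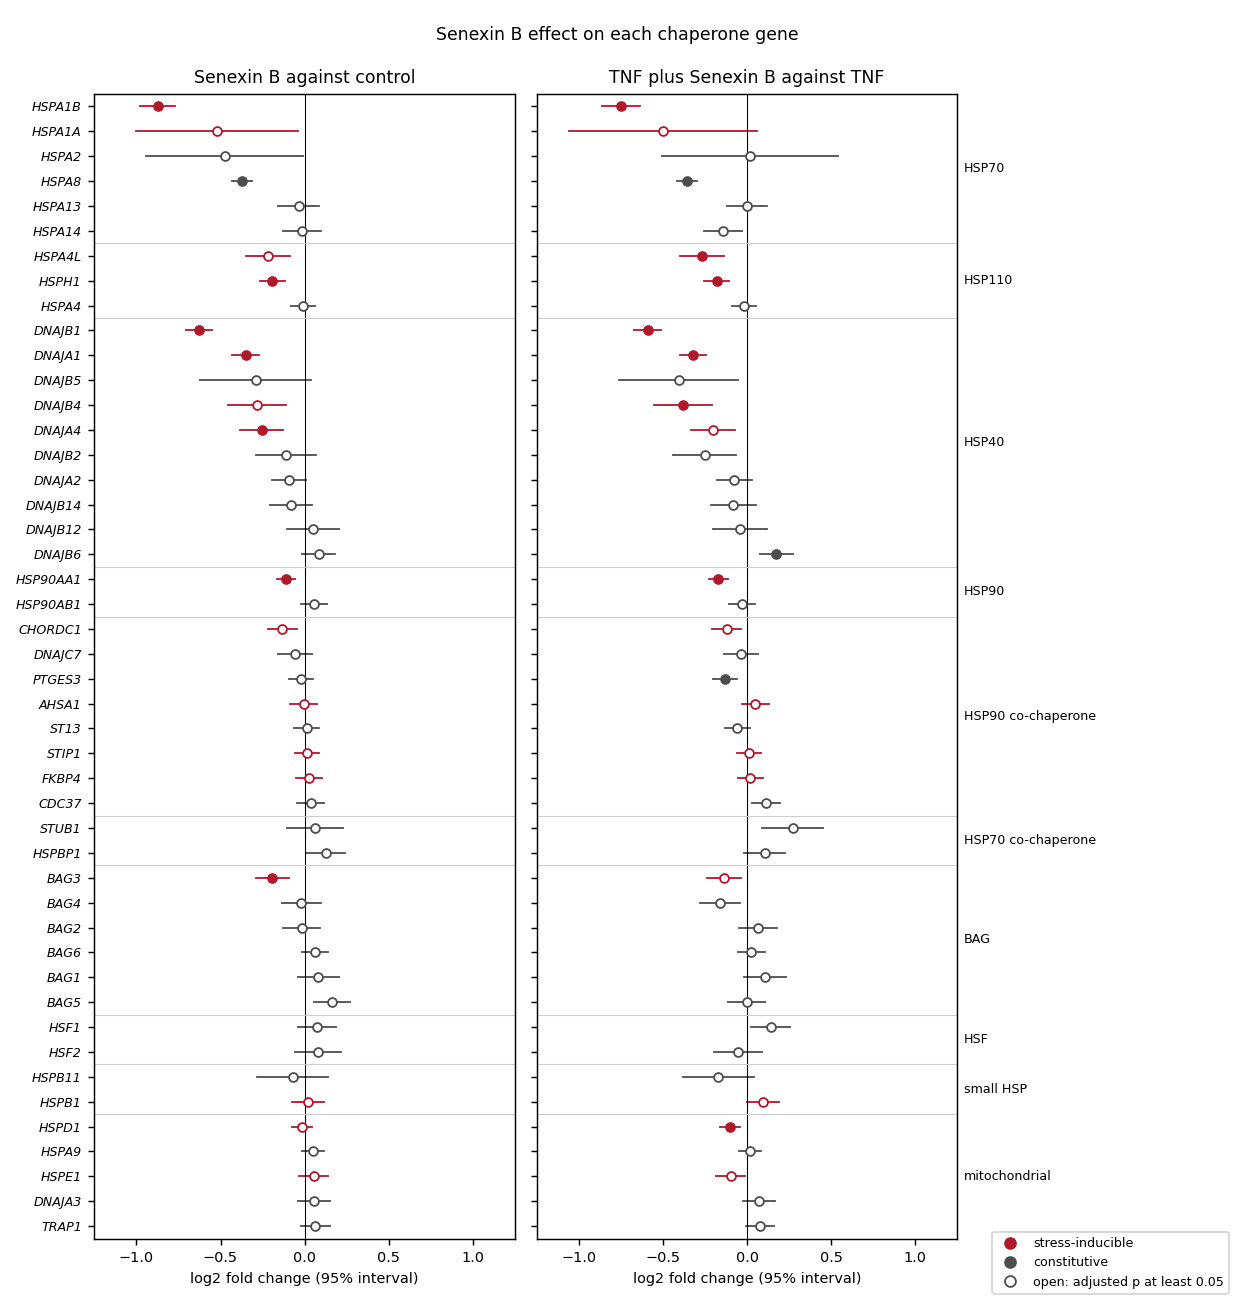
Log2 fold change with 95% interval (x axis) of each of the 46 genes in both Senexin B comparisons, grouped by family, red for stress-inducible and grey for constitutive, filled where called. HSPA1B (-0.87 and -0.75) and DNAJB1 (-0.63 and -0.59) lie farthest to the left among called genes, and the HSP90 co-chaperones STIP1, FKBP4 and AHSA1 lie near 0 in both panels.

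HSPA1B encodes the main stress-inducible cytosolic HSP70. It stood at 161, 153 and 145 CPM in control replicates 1, 2 and 3, and at 85.4, 82.0 and 83.3 CPM with Senexin B. With TNF it was at 124, 117 and 116 CPM, and with TNF plus Senexin B at 76.5, 68.5 and 67.6 CPM. The 4 groups did not overlap, in the order control, TNF, Senexin B, both. The log2 fold change was -0.87 ± 0.05 (SE) without TNF (edgeR adjusted p = 7.99e-19) and -0.75 ± 0.06 with it (edgeR adjusted p = 2.94e-15). With both agents the mean was 46.3% of control.

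HSPA1A, the neighbouring and nearly identical gene, had only 14 to 36 counts per library, against 583 to 1315 for HSPA1B. It was at 2.96, 4.27 and 3.98 CPM in control, 2.34, 3.60 and 2.03 with Senexin B, 2.95, 2.70 and 3.05 with TNF, and 1.81, 2.70 and 1.61 with both. Its libraries overlapped between the groups of both Senexin B comparisons, and its log2 fold changes of -0.52 ± 0.25 and -0.50 ± 0.29 with Senexin B were not called (edgeR adjusted p = 0.303 and 0.344). Both genes lie on chromosome 6 (GENCODE 29, GRCh38), HSPA1A from 31815464 to 31817946 and HSPA1B from 31827735 to 31830255, with reading frames of 1926 bases each that differ at 4 positions. Of all stretches of 50 bases in the HSPA1A transcript 72.6% occur in HSPA1B, and of those in HSPA1B 71.4% occur in HSPA1A, so a read of that length from most of either transcript matches both. HSPA1A took 1.81% to 4.20% of the pair's counts. How the counting treated reads with several matches is not given in the sources used here, so the low HSPA1A values cannot be read as a low level of that transcript.

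Summed to 1 feature, the pair followed HSPA1B, which gave nearly all of its counts. The sum therefore cannot show how shared reads bear on the result. The sum averaged 157 ± 7.26 CPM in control (SD, n = 3), 86.2 ± 1.35 with Senexin B, 122 ± 4.46 with TNF and 72.9 ± 4.80 with both. The log2 fold change of the sum was -0.86 ± 0.05 in Senexin B against control (edgeR adjusted p = 6.87e-19). It was -0.74 ± 0.06 in TNF plus Senexin B against TNF (edgeR adjusted p = 2.18e-15). GENCODE also places 36.5% of the exon bases of HSPA1B in AL671762.1 on the same strand, so some of its reads may have been assigned elsewhere or dropped.

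HSPA8 encodes HSC70, the abundant constitutive cytosolic HSP70, and was the only constitutive gene called in both Senexin B comparisons. Its control libraries held 3571, 3675 and 3838 CPM, and the Senexin B libraries 2821, 2799 and 2940.2. With TNF the values were 3882, 3733 and 3884 CPM, and with both agents 2953, 2960.3 and 3051. Every library with the inhibitor was below every library without it. The log2 fold changes were -0.37 ± 0.03 (edgeR adjusted p = 6.11e-14) and -0.36 ± 0.03 (edgeR adjusted p = 1.86e-13). The remaining HSP70 genes gave no call: HSPA13 and HSPA14 had fold changes between -0.14 and 0.00 on the log2 scale. HSPA2 averaged 2.69 to 3.96 CPM and was at -0.48 ± 0.24 in Senexin B against control (edgeR adjusted p = 0.346).

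**Figure D3:**
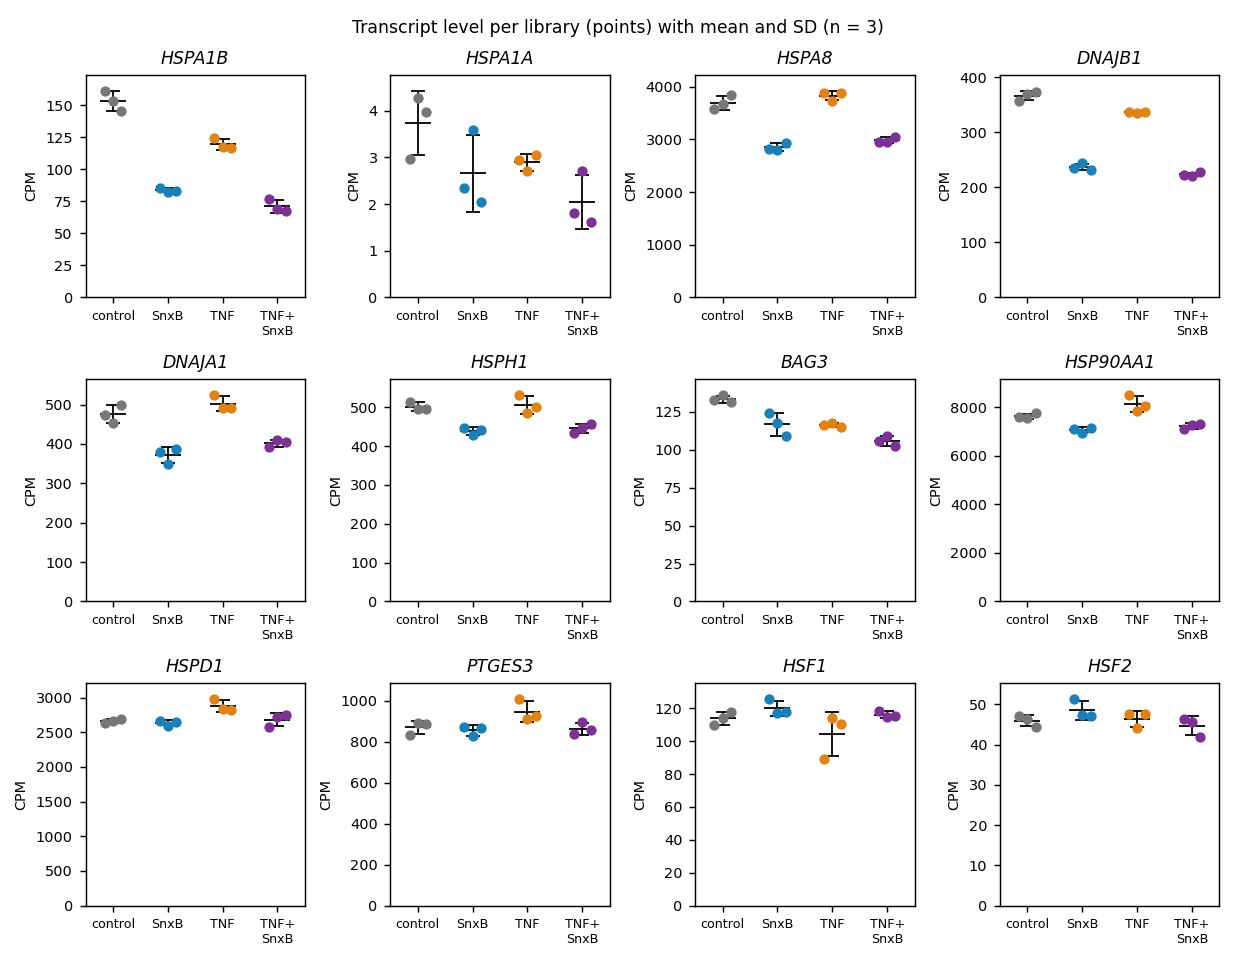
CPM in each library (points), with mean and SD over 3 libraries, for 12 members in control, Senexin B (SnxB), TNF and TNF plus Senexin B, each on a linear axis from 0. HSPA8, DNAJB1 and DNAJA1 separate by the inhibitor, HSPA1B separates all 4 groups, and TNF replicate 1 is the highest TNF library for HSP90AA1, HSPD1 and PTGES3 (8488, 2972 and 1007 CPM).

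Among J-domain genes, DNAJB1, the main HSP40 partner of inducible HSP70, fell most. It was at 357, 369.9 and 373 CPM in control and 235, 244 and 232 with Senexin B, and at 337, 336 and 337 CPM with TNF and 222, 221 and 227 with both. The libraries with and without the inhibitor were far apart and tight within groups. The log2 fold changes were -0.63 ± 0.04 (edgeR adjusted p = 1.35e-18) and -0.59 ± 0.04 (edgeR adjusted p = 4.98e-17). The gene lies on chromosome 19 from 14514770 to 14529770 on the minus strand, and 6.2% of its exon bases overlap TECR on the other strand.

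DNAJA1, a farnesylated HSP40 that serves HSC70, was at 472, 454 and 499.5 CPM in control, 380.2, 350.3 and 388 with Senexin B, 524, 492 and 492 with TNF and 392, 410.1 and 404 with both. Its inhibitor-treated libraries lay below all others. The log2 fold changes were -0.35 ± 0.04 (edgeR adjusted p = 4.65e-09) and -0.32 ± 0.04 (edgeR adjusted p = 3.4e-08). DNAJB4 averaged 22.6 CPM with Senexin B against 27.5 in control, and 23.8 with both against 31.3 with TNF, and was called in the second (log2 fold change -0.38 ± 0.09, edgeR adjusted p = 0.00339) but not in the first (-0.28 ± 0.09, edgeR adjusted p = 0.0674). DNAJA4 showed the reverse, called without TNF (55.9 against 66.8 CPM, -0.26 ± 0.06, edgeR adjusted p = 0.0108) and not with it (-0.20 ± 0.07, edgeR adjusted p = 0.0559). The DNAJA4 call was lost without control replicate 1, control replicate 3 or Senexin B replicate 1 (adjusted p = 0.0507, 0.0838 and 0.148). That of DNAJB4 was lost with GC-corrected offsets (0.0534). With TNF, DNAJA4 was called lower with GC-corrected offsets (edgeR adjusted p = 0.0245), a replicate block (0.0444) and without TNF replicate 2 (0.0266). Without TNF, DNAJB4 was called lower when TNF replicate 1 was left out of the fit (0.0416). For neither gene was the difference between the 2 effects called.

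DNAJB6, a constitutive J-domain protein that holds back aggregation, was the only member called higher with the inhibitor in the main fit. It averaged 126 CPM with both agents against 112 with TNF (log2 fold change 0.17 ± 0.05, edgeR adjusted p = 0.0276). The call was lost in 5 of 12 fits that left out a library: TNF replicate 2 or 3, or TNF plus Senexin B replicate 1, 2 or 3 (adjusted p from 0.0641 to 0.0877). It was also lost with DESeq2 (0.0554), with only the groups compared (0.0537) and with GC-corrected offsets (0.0951). The constitutive J-domain genes DNAJA2, DNAJB2, DNAJB5, DNAJB12 and DNAJB14 were not called in the main fit, and DNAJB5 averaged 4.95 to 7.08 CPM. With GC-corrected offsets DNAJB2 was called lower in TNF plus Senexin B against TNF (-0.32, edgeR adjusted p = 0.032).

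The HSP110 genes encode nucleotide exchange factors of HSP70. HSPH1, the inducible HSP105, was at 514, 495 and 496 CPM in control and 448, 428 and 442 with Senexin B, and at 531, 485 and 502 CPM with TNF and 433, 448 and 457 with both. The groups with the inhibitor lay below those without. The log2 fold changes were -0.19 ± 0.04 (edgeR adjusted p = 0.000537) and -0.18 ± 0.04 (edgeR adjusted p = 0.00107). HSPA4L averaged 58.6 CPM with both agents and 70.4 with TNF (log2 fold change -0.27 ± 0.07, edgeR adjusted p = 0.00699), and 55.3 with Senexin B against 64.6 in control (-0.22 ± 0.07, edgeR adjusted p = 0.0552). The former call was lost without TNF replicate 3 (adjusted p = 0.103), without TNF plus Senexin B replicate 1 (0.0731) and with GC-corrected offsets (0.0687). Several alternative fits called HSPA4L lower in Senexin B against control, among them only the groups compared (edgeR adjusted p = 0.0306) and the replicate block (0.0336). HSPA4, the constitutive member, stayed at -0.01 ± 0.04 and -0.02 ± 0.04 and was not called.

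HSP90AA1 encodes the inducible cytosolic HSP90 and HSP90AB1 the constitutive one. HSP90AA1 was at 7579, 7559 and 7742 CPM in control, 7090.4, 6946 and 7149 with Senexin B, 8488, 7858 and 8049 with TNF and 7093, 7250.1 and 7325 with both. The libraries with the inhibitor were below all others, by a small margin. The log2 fold changes were -0.11 ± 0.03 (edgeR adjusted p = 0.0137) and -0.17 ± 0.03 (edgeR adjusted p = 2.23e-05). In the comparison without TNF it was not called when control replicate 3 was left out (adjusted p = 0.0775), when Senexin B replicate 2 was (0.118) and with no filter on low counts (0.0886). HSP90AB1 was at 0.06 ± 0.04 and -0.03 ± 0.04 on the log2 scale (edgeR adjusted p = 0.58 and 0.714), with overlapping libraries. Whether the 2 paralogs differ in response was not tested.

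HSP90 co-chaperones were for the most part not called, the inducible ones included. STIP1, the HOP adaptor between HSP70 and HSP90, was at 0.01 ± 0.04 in both comparisons (95% interval of the first -0.06 to 0.08). FKBP4 and AHSA1, an immunophilin and the activator of the HSP90 ATPase, lay between -0.01 and 0.05. CHORDC1, a cysteine- and histidine-rich HSP90 partner, was at -0.13 ± 0.04 and -0.12 ± 0.04 (edgeR adjusted p = 0.0905 and 0.101). Its libraries did not overlap in either comparison, and without TNF replicate 1 it was called lower in the first (0.0318). PTGES3, the p23 co-chaperone, was called with TNF present (log2 fold change -0.13 ± 0.04, edgeR adjusted p = 0.0183). Its libraries stood at 834, 889.8 and 886 CPM in control, 872, 826 and 869 with Senexin B, 1007, 909.8 and 924 with TNF and 836, 895 and 856 with both, so TNF was the group that stood out. It was not called without TNF replicate 1 (adjusted p = 0.162), the highest library, and without TNF plus Senexin B replicate 1 or 3 (0.138 and 0.0873), or without control and TNF replicates 1 (0.0891). CDC37, ST13 and DNAJC7 gave no call.

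Several BAG proteins bind the ATPase domain of HSP70, and BAG3, the inducible one, acts in selective autophagy. BAG3 was at 133, 136 and 132 CPM in control, 124, 118 and 109 with Senexin B, 116, 118 and 115 with TNF, and 106, 109 and 103 with both. All treated libraries were below control. The log2 fold change with Senexin B was -0.19 ± 0.05 (edgeR adjusted p = 0.0173), and -0.14 ± 0.05 in the presence of TNF (edgeR adjusted p = 0.12). With GC-corrected offsets BAG3 was called lower in the presence of TNF as well (-0.19, edgeR adjusted p = 0.00459). The call without TNF was lost once control replicate 2 was left out (adjusted p = 0.0879), Senexin B replicate 2 (0.0583) or Senexin B replicate 3 (0.234). In the main fit BAG1, BAG2, BAG4, BAG5 and BAG6 were not called, nor were the HSP70 co-chaperones STUB1, a ubiquitin ligase, and HSPBP1, an exchange factor. BAG5 was called higher in Senexin B against control with GC-corrected offsets (edgeR adjusted p = 0.0288) and without TNF replicate 1 (0.0464). STUB1 was called higher in TNF plus Senexin B against TNF without TNF replicate 2 (edgeR adjusted p = 0.0278).

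Transcripts of the factors that drive the heat shock programme gave no call in the main fit. HSF1 was at 110.0, 114 and 118 CPM in control, 125, 117 and 118 with Senexin B, 89.3, 114 and 110.3 with TNF, and 118, 115 and 116 with both. Its lowest value was TNF replicate 1. The log2 fold changes with the inhibitor were 0.07 ± 0.06 (edgeR adjusted p = 0.611) and 0.14 ± 0.06 (edgeR adjusted p = 0.161). Without TNF replicate 2, HSF1 was called higher in the second comparison (0.21, edgeR adjusted p = 0.0383). HSF2 was at 47.0, 46.3 and 44.4 CPM in control, 51.2, 47.2 and 47.0 with Senexin B, 47.5, 44.2 and 47.6 with TNF, and 46.4, 45.6 and 42.0 with both (log2 fold changes 0.08 ± 0.07 and -0.05 ± 0.07, edgeR adjusted p = 0.654 and 0.741). RNA levels do not measure HSF1 activity.

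In mitochondria, HSPD1 (HSP60) and HSPE1 (HSP10) form the chaperonin and HSPA9 is the matrix HSP70. HSPD1 was at 2631, 2656 and 2695 CPM in control, 2659, 2594 and 2652 with Senexin B, 2972, 2841 and 2822 with TNF and 2581, 2719 and 2746 with both. Only the TNF group lay apart, above the others. The log2 fold change was -0.01 ± 0.03 without TNF (edgeR adjusted p = 0.891) and -0.10 ± 0.03 with it (edgeR adjusted p = 0.0344). The latter call was lost without TNF replicate 1 (adjusted p = 0.148), TNF plus Senexin B replicate 1 or 2 (0.251 and 0.0746) or Senexin B replicate 3 (0.0515). It was also lost with no filter on low counts (0.134), with only the groups compared (0.0725), with GC-corrected offsets (0.0732) and without control and TNF replicates 1 (0.0879). HSPE1, HSPA9, DNAJA3 and TRAP1 were not called. Nor were HSPB1 and HSPB11 called in either Senexin B comparison. HSPB11 was put with the small HSP genes by its symbol alone.

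Stress-inducible and constitutive members differed in count and in median. In Senexin B against control 7 of 17 inducible members (41.2%) and 1 of 29 constitutive members (3.45%) were called lower, where the whole table had 1.51%. With TNF present the counts were 8 of 17 (47.1%) and 2 of 29 (6.9%), where the table had 2.55%. The median log2 fold change was -0.19 for inducible and 0.01 for constitutive members without TNF, and -0.17 and -0.02 with it, beside medians of 0.00 over all genes in both. Libraries of the groups did not overlap, with the inhibitor lower, for 10 of 17 inducible members (58.8%) and 1 of 29 constitutive ones (3.45%) without TNF, where 10.0% of all tested genes separated in that direction. With TNF the numbers were 11 of 17 (64.7%) and 6 of 29 (20.7%), beside 11.3% of all genes. These classes came from textbook knowledge with earlier results of these data known, so the counts are given without a test between classes. Within the inducible class 5 of 8 genes of the HSP70, HSP40 and HSP110 families were called lower without TNF and 6 of 8 with it, and 2 of 9 genes of the other families in each. HSPA1A, CHORDC1, STIP1, FKBP4, AHSA1, HSPB1 and HSPE1 were called in neither comparison by the main fit.

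**Figure D4:**
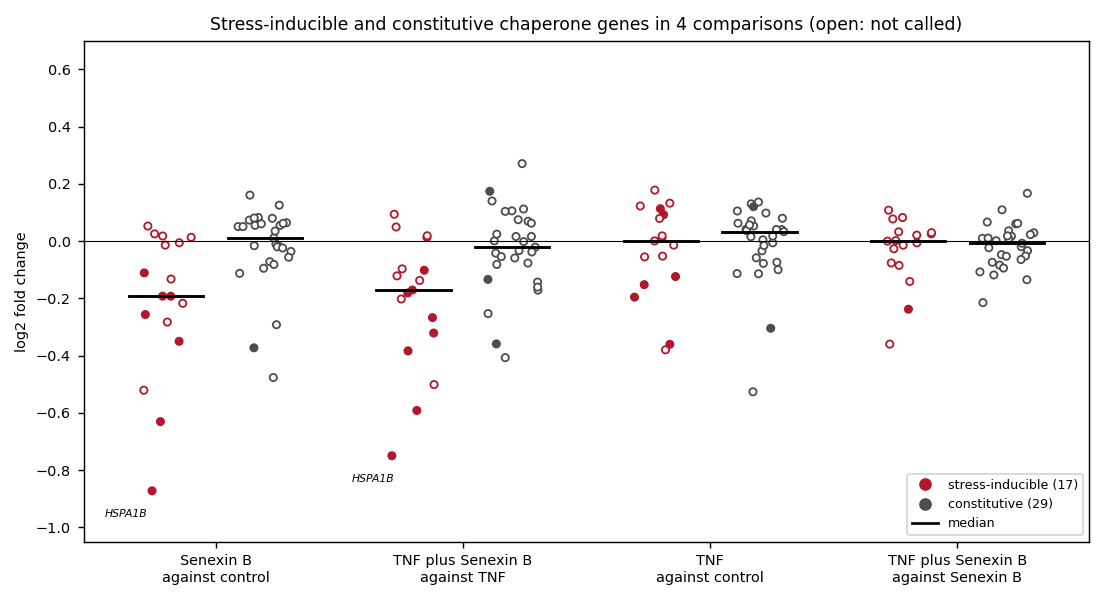
Log2 fold change (y axis) of the 17 stress-inducible (red) and 29 constitutive (grey) members in each of 4 comparisons, filled where called, with the class median as a bar. The inducible median is at -0.19 and -0.17 in the Senexin B comparisons and at 0.00 in both TNF comparisons.

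TNF against control asked what the cytokine alone did, and shares its control libraries with the first comparison and its TNF libraries with the second. HSPA1B was lower, and the other called members moved by less. Of 46 members, 5 were lower (10.9%, beside 4.20% of all tested genes) and 3 higher (6.52%, beside 5.81%), where TNF changed 10.0% of all genes in either direction. HSPA1B was at -0.36 ± 0.05 on the log2 scale (edgeR adjusted p = 2.96e-07) and kept its call in every alternative fit. BAG3 was at -0.20 ± 0.05 (edgeR adjusted p = 0.00688), a call lost only with GC-corrected offsets (adjusted p = 0.0603). DNAJB1 was at -0.12 ± 0.04 (edgeR adjusted p = 0.03). Its call was lost without control replicate 2 or 3 or TNF replicate 2 or 3 (adjusted p from 0.0661 to 0.131), with no filter on low counts (0.0951), with only the groups compared (0.0895) and with GC-corrected offsets (0.0651).

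Of the remaining TNF calls, all but that of HSPD1 were lost both without TNF replicate 1 and with GC-corrected offsets. HSP90AA1, HSPD1 and PTGES3 were higher, at 0.09 ± 0.03, 0.11 ± 0.03 and 0.12 ± 0.04 on the log2 scale (edgeR adjusted p = 0.026, 0.00885 and 0.0255). Their transcripts have 45.2%, 44.2% and 42.9% GC. HSPB1 and STUB1 were lower, at -0.15 ± 0.05 and -0.30 ± 0.09 (edgeR adjusted p = 0.0385 and 0.0246), and have 64.3% and 65.0% GC. Members with lower GC, such as DNAJB4 (33.1%) and CHORDC1 (35.0%), were not called in TNF against control. Nor were HSF1 (64.7%) and HSPBP1 (64.6%), at the other end. In TNF replicate 1, HSPB1 stood at 232 CPM and STUB1 at 22.7, below replicate 2 (269.9 and 30.4) and replicate 3 (259.6 and 28.5), and the libraries of both genes overlapped those of control. Without TNF replicate 1 the adjusted p was 0.189 for HSP90AA1, 0.212 for PTGES3, 0.227 for HSPB1 and 0.19 for STUB1, while HSPD1 kept its call. With GC-corrected offsets HSPB1 was at 0.00 (adjusted p = 0.983) and STUB1 at -0.15 (0.343). Only HSPA1B, HSPD1 and HSPE1 were called there, HSPE1 at 0.13 (adjusted p = 0.0178) and HSPD1 losing its call only without both control replicate 1 and TNF replicate 1 (0.0839). Other libraries also decided calls: HSP90AA1 was not called without control replicate 1 or 2, PTGES3 without control replicate 1, STUB1 without control replicate 1 or 3, and HSPB1 without control replicate 2 or 3 or TNF replicate 3 (adjusted p from 0.058 to 0.165). With only the groups compared none of these 4 was called (adjusted p from 0.061 to 0.0925), DESeq2 did not call PTGES3, HSPB1 or STUB1 (0.0554 to 0.0853), and HSP90AA1 was not called with no filter on low counts (0.0507). STUB1 also shares 42.4% of its exon bases with JMJD8 on the other strand, and its value cannot be told apart from that gene where strand was not used.

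When the cytokine was added to inhibited cells (TNF plus Senexin B compared with Senexin B alone), HSPA1B was the only member called in the main fit. That is 1 of 46 lower (2.17%) beside 1.68% of all tested genes, 4.27% being higher and 5.95% called in all. With only the groups compared HSPA13 and DNAJA1 were also called, both higher (edgeR adjusted p = 0.036 and 0.0289). The libraries of the groups did not overlap for 6 members lower with TNF (13%) and 4 higher (8.7%), where 10.4% and 11.5% of all genes separated so. HSPA1B was at -0.24 ± 0.06 on the log2 scale (edgeR adjusted p = 0.00395), and failed the threshold without TNF plus Senexin B replicate 3 (adjusted p = 0.0629). The sum of HSPA1A and HSPA1B, made up almost wholly of HSPA1B counts, was at -0.24 ± 0.06 (edgeR adjusted p = 0.00263).

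The interaction of the agents, which tests whether the inhibitor's effect differed with and without TNF, called 0 of 46 members by edgeR and 0 by DESeq2, beside 0.0459% of all tested genes by edgeR (0.0229% in each direction). At an unadjusted p under 0.05 there were 4 members (8.7%), beside 6.08% of all tested genes. For HSPA1B the difference was 0.12 ± 0.08 with a 95% interval from -0.03 to 0.28 (edgeR adjusted p = 0.842), and for DNAJB1 0.04 ± 0.06 with an interval from -0.07 to 0.15 (edgeR adjusted p = 0.93). For HSPA8 the interval ran from -0.07 to 0.10 (edgeR adjusted p = 0.977). The data are compatible with any difference of effects inside these intervals, so the lack of a call does not show that the effects are equal.

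Other genes of protein folding were taken from lists that do not overlap the 46. Of 16 other heat-shock-induced genes 13 were tested, of which 3 were lower with Senexin B and 0 higher (23.1%, beside 1.51%). Among them were JMJD6, a nuclear hydroxylase, at -0.42 ± 0.06 (edgeR adjusted p = 1.32e-06), and the autophagy receptor SQSTM1 at -0.24 ± 0.04 (0.000178). With TNF present 3 of the 13 were lower and 0 higher (23.1%, beside 2.55%), JMJD6 at -0.29 ± 0.06 (edgeR adjusted p = 0.00157) and SQSTM1 at -0.34 ± 0.04 (1.34e-08) among them. In TNF against control 1 of the 13 was higher (7.69%, beside 5.81%), SQSTM1 at 0.71 ± 0.04 (edgeR adjusted p = 6.3e-21). By edgeR 2 were lower (15.4%, beside 4.20%), JMJD6 at -0.19 ± 0.06 (adjusted p = 0.0299) and DEDD2 at -0.27 ± 0.09 (adjusted p = 0.0403), and DESeq2 called 0 lower, where 4 had an unadjusted p under 0.05 by edgeR. DEDD2 was named after its values were seen.

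Over all tested genes edgeR called 3.04% in Senexin B against control and 5.45% with TNF present. Lists of 9 to 23 genes would hold few calls at such shares, so counts near 0 do not set a list apart. Of 12 other HSP90 co-chaperones, 0 were called in Senexin B against control by edgeR or DESeq2 (4 had an unadjusted p under 0.05). RPAP3 was lower with TNF present by edgeR (-0.24 ± 0.07, adjusted p = 0.0153) and not by DESeq2. Of 14 subunits of the CCT chaperonin and prefoldin, which fold actin and tubulin, and of 23 other J-domain genes, 0 were called by edgeR or DESeq2 in either Senexin B comparison. At an unadjusted p under 0.05 there were 1 and 2 of these genes without TNF, and 3 and 2 with it. Among 9 mitochondrial partners and proteases, GRPEL2, an exchange factor of mitochondrial HSP70, rose with Senexin B (0.27 ± 0.05, edgeR adjusted p = 0.000549), and the protease gene LONP1 was higher with TNF present (0.18 ± 0.05, edgeR adjusted p = 0.013). Of 9 chaperones of the endoplasmic reticulum, SIL1 alone was called by edgeR in a Senexin B comparison (0.37 ± 0.11 without TNF, adjusted p = 0.044), and not by DESeq2. In TNF against control edgeR called 2 of the 14 CCT and prefoldin genes (14.3%) and 1 of the 9 mitochondrial genes (11.1%) higher. Of the 9 endoplasmic reticulum chaperones 1 was higher and 1 lower there (11.1% each), beside 5.81% and 4.20% of all tested genes.

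Several members have processed copies elsewhere in the genome, which bears on how firmly single values can be read. The share of 50-base stretches found in other GENCODE genes was 30.7% for ST13, 27.2% for HSPE1, 24.8% for HSPD1, 19.1% for DNAJB6, 18.8% for HSP90AB1, 17.5% for HSP90AA1 and 15.4% for HSPA8. Reads from such stretches may have been dropped or split between genes.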

How the data were processed

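Libraries of 12 HCT116 samples were made with a TruSeq RNA kit, per the labels. The authors deposited raw read counts for each gene symbol. STAR 2.4, featureCounts (Subread 1.4.6), SAMtools 1.2 and the build GRCh38 are named in the submitters' processing notes. The annotation release, the strand setting and the treatment of reads with several matches are not given in the sources used here. Columns were matched to samples by the column name in each sample's description.

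All 12 libraries entered 1 quasi-likelihood fit (edgeR 4.0.16 in R 4.3.3; robust dispersions, a coefficient for each group), after filterByExpr by group with a least count of 10 and TMM scaling. P-values were adjusted by the Benjamini-Hochberg method over 13084 genes, and an adjusted p under 0.05 was called. Errors of log2 fold changes are Wald standard errors, and 95% intervals use them. Positions, exon lengths and shared 50-base stretches came from GENCODE 29 (GRCh38), where 12223 tested genes (93.4%) had a transcript GC content, and promoter windows from RefSeq (GRCh38.p14). On simulated counts with known changes in Senexin B against control, the fit, run on 12957 genes, called 42.9% of those set to 1.2-fold, 75.4% of those set to 1.5-fold and 88.2% of those set to 2-fold. Of its 148 calls, 9 were false. In TNF against control 18 of 154 calls were false, and 40.3% of genes set to 1.2-fold were called. TNF plus Senexin B against TNF gave 2 false of 136 calls and 30.5% at 1.2-fold. TNF plus Senexin B compared with Senexin B alone gave 8 of 149 and 38.2%.

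Alternatives were RLE factors, DESeq2 1.42.0, no filter on low counts, only the groups compared, a replicate block, each library left out, control and TNF replicates 1 both left out, GC-corrected offsets, HSPA1A and HSPA1B summed, and HSPA8 moved to the inducible list. The members, the classes and the other gene lists were chosen with earlier results of these data known. Values in every library are given for HSPA1A, HSPA1B, HSF1, HSF2 and members called in at least 2 of 4 pairwise comparisons, group means for members called in 1, and counts or ranges for the rest. Of each other list, up to 3 called genes with the smallest adjusted p in each Senexin B comparison are named, except 1 gene that is not reported here.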

Additional observations from a re-analysis of the deposited data

How the results depend on the processing

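The counts of called members in the Senexin B comparisons stayed within 1.5 times of 8 and 11 in every fit with all libraries. Leaving out 1 library gave 6 to 12 without TNF and 7 to 13 with it, where 7 was without TNF plus Senexin B replicate 1. TNF against control gave 8 called members, but 5 with DESeq2, 3 with only the groups compared, 5 without control and TNF replicates 1, 3 with GC-corrected offsets and 4 to 9 without 1 library (4 without TNF replicate 1, 5 without control replicate 1 or 2). TNF plus Senexin B compared with Senexin B alone gave 1, but 3 with only the groups compared, 4 without control and TNF replicates 1 and 0 to 2 without 1 library (0 without TNF plus Senexin B replicate 3, 2 without Senexin B replicate 3 or TNF replicate 1). The interaction gave 0 in every fit, 0 to 0 without 1 library.

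The inducible minus constitutive median was -0.20 in Senexin B against control, -0.1532 without control and TNF replicates 1, -0.1733 with HSPA1A and HSPA1B summed, and -0.2253 to -0.1537 without 1 library. It was -0.15 in TNF plus Senexin B against TNF, -0.1155 without control and TNF replicates 1, and -0.1698 to -0.1155 without 1 library. In TNF against control it ran from -0.06896 to -0.003115 without 1 library, and without TNF replicate 3 it was -0.003115 against -0.03 with all. Between TNF plus Senexin B and Senexin B alone it was 0.01 and turned sign without Senexin B replicate 1 (-0.004065) and TNF plus Senexin B replicate 2 (-0.01623), up to 0.01751 at the other end.

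The replicate block gave 9, 12, 9, 1 and 0 called members in the 4 pairwise comparisons and the interaction. It added HSPA4L without TNF, DNAJA4 with TNF and HSP90AB1 in TNF against control (adjusted p = 0.0336, 0.0444 and 0.00411). Same-numbered libraries correlated at -0.0123 to 0.103, with 1 of 18 pairs over 0.1, so they were not treated as paired. As a hint from the data and not the design, 14 of 18 matched their own number best.

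Over all genes, DESeq2 called 259, 437, 799 and 485 in the 4 pairwise comparisons (398, 713, 1309 and 779 by edgeR), and Senexin B against control gave 261, 250 and 236 without Senexin B replicates 1, 2 and 3. TNF plus Senexin B against TNF gave 463 without TNF replicate 1 and 461, 468 and 451 without TNF plus Senexin B replicates 1, 2 and 3. The interaction gave 6 genes, 10 with no filter on low counts, 3 without control replicate 1 or 2, and 2 without replicate 2 or 3 of Senexin B or replicate 1 or 3 of TNF plus Senexin B. The cause was not tested. At these depths, genes of a few CPM such as HSPA1A, HSPA2 and DNAJB5 allow no statement on small changes.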
